A study of Mus musculus with 13 samples.

Results

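Proteasome subunit genes were taken as every gene of the deposited count table whose symbol is Psma, Psmb, Psmc or Psmd followed by a number. The rule found 39 of 35013 genes, and no measured value entered it. Of these 39, 38 had enough reads for testing, among 16468 tested genes. Each of the 38 had at least 19 reads in every library, so none was kept through the libraries of a single group. The remaining gene, Psma8, encodes the alpha subunit of the testis form and had between 0 and 6 reads in each library.

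The libraries hold RNA from mouse kidney that was captured after labelling in proximal tubule cells. All mice were female and carried Megalin3'Cre-Ert, a tamoxifen-dependent Cre expressed from the megalin promoter, together with Uprt flox/+, which lets Cre-positive cells build 4-thiouracil into new RNA. All received tamoxifen and 4-thiouracil, and the tagged RNA was biotinylated, captured on streptavidin and selected for poly-A. The 4 libraries labelled Spns1 KO came from Spns1 flox/flox mice without iron and form the genetic model, in which a candidate iron transporter of the endosome and lysosome is deleted. The 5 WT libraries and the 4 FeO libraries came from mice labelled Spns1 WT, which the methods give as Spns1 flox/+, so Cre can delete an allele of Spns1 in these mice too. The FeO mice were injected with 12 mg of iron sucrose on each of 3 days by the labels, while the methods give the same mass as elemental iron, and were killed 1 week later, and the WT mice received none. Ages were not given in the sources used here. The deletion is restricted to megalin-expressing cells, and the tagging to cells in which Cre activated Uprt. Because the RNA is pooled from a whole kidney, fewer labelled cells and less RNA per cell cannot be told apart.

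The proteasome is the protease that degrades ubiquitin-tagged proteins in the cytosol and nucleus. Its core particle is a barrel of alpha rings, which gate the channel, and beta rings, which hold the peptidases, and its regulatory particle has a base with a ring of ATPases that unfold substrates and a lid that removes ubiquitin. Immune signals replace the constitutive peptidases with inducible ones in the immunoproteasome, and stressed cells raise the whole set of subunits through the transcription factor NRF1, the product of Nfe2l1, at antioxidant response elements.

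Total counts lay between 31809135 and 71296474 in the libraries labelled Spns1 KO, between 23068023 and 37362311 in WT and between 25986133 and 29981814 in FeO. Spns1 itself had 36.6 to 59.0 CPM (counts scaled for depth) in the genetic model and 39.2 to 62.9 CPM in WT, with a log2 difference of -0.31 ± 0.18 (SE) and an edgeR adjusted p of 0.226, so its counts did not separate the groups and the group names rest on the labels. Summed levels of 10 proximal tubule markers were 7348 to 8649 CPM in the libraries labelled Spns1 KO, 3436 to 4742 CPM in WT and 2340 to 5655 CPM in FeO, and no marker of any list was at 0 in every library. For 8 loop and distal nephron markers the sums were 3396 to 4458, 1995 to 4498 and 2162 to 5498 CPM. They were above the proximal tubule sum in WT 4, FeO 1 and FeO 4. For 8 podocyte and endothelial markers the sums were 402 to 447, 291 to 432 and 414 to 874 CPM. The libraries thus held RNA of other cell types, in amounts that differed between libraries. The labels do not say whether each library is a separate animal, and p-values measure the spread between these libraries.

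Promoter sequence is shown for 4 subunit genes because it bears on the elements named above. RefSeq windows (build GRCm38.p6, 250 bases before to 50 after the start) were present for 32 of the 39 genes. The capitals mark an antioxidant response element core, TGACNNNGC, an interferon regulatory factor core, AANNGAAA, or a CCAAT box, each searched on both strands. Each stretch ends at the last base before the start site and is written 5′ to 3′ on the gene's strand. Psmb5 and Psmb6 encode constitutive peptidases, Psmd9 is an assembly chaperone that was called in neither model, and Psma6 had the largest change of the alpha ring in both.
Psmb5, chr14:54617996-54618095, minus strand: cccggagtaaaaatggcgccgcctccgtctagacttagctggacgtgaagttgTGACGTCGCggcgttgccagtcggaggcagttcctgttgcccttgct
Psmb6, chr11:70525257-70525356, plus strand: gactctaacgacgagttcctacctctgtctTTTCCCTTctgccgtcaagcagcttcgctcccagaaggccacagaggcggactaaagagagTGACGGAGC
Psmd9, chr5:123228090-123228189, plus strand: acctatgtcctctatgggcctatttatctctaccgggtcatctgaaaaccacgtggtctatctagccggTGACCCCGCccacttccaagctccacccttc
Psma6, chr12:55384122-55384221, plus strand: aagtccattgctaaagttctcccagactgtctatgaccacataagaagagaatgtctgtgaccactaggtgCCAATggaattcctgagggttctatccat

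The antioxidant response element core was in 5 of the 32 windows, those of Psmb5, Psmb6, Psmc6, Psmd9 and Psmd12, which is 15.6% beside 16.5% of the 12345 tested genes with a window and 14.0% of all 27025 genes with one. The CCAAT box was in 13 of 32, or 40.6%, beside 42.6% and 41.1%. The interferon regulatory factor core was in 10 of 32, or 31.25%, beside 22.4% and 26.7%, and none of the windows of Psmb8, Psmb9 and Psmb10 held it. The 5 genes with the antioxidant core ranged from the largest rise after iron among all subunit genes, in Psmb5, to no call in either model, in Psmc6 and Psmd9. These are matches of letters in a fixed window and not measured binding.

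The first comparison asked how proteasome subunit genes changed after iron loading. With a call defined as an adjusted p under 0.05 in edgeR's quasi-likelihood test (Benjamini-Hochberg adjustment over all tested genes) and a log2 fold change beyond 0.5, 31 of the 38 tested subunit genes rose in FeO against WT, which is 81.6% beside 22.4% of all tested genes. A single gene, Psmb11, fell, beside 19.7% of all tested genes. The median log2 fold change of the subunit genes was 0.94 and that of all tested genes was -0.011. In 28 of 38 subunit genes every FeO library was above every WT library, beside 16.9% of all tested genes, and in 1 every FeO library was below, beside 16.4%.

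The same question in the genetic model gave a smaller count. In the libraries labelled Spns1 KO, 12 of 38 subunit genes rose, which is 31.6% beside 14.0% of all tested genes, and 0 fell, beside 7.55%. Of the 38, 35 had a log2 fold change above 0, with a median of 0.43 beside -0.045 for all tested genes, and 21 had an unadjusted p under 0.05. DESeq2 called 14 up and 0 down, beside 2594 and 1610 of 17033 tested genes. In 3 genes, Psmb8, Psmb10 and Psmd10, all 4 libraries labelled Spns1 KO were above every WT library, beside 13.1% of all tested genes. With library totals alone this held for Psmb8 and Psmb10 only.

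That count turned on single libraries. The library labelled Spns1 KO 4 was the lowest of its group in 35 of 38 subunit genes. It was above the highest WT library in 4 subunit genes, inside the WT range in 28 and below it in 6. The libraries labelled Spns1 KO 1, 2 and 3 were above the highest WT library in 32, 33 and 35 subunit genes, and all 3 together in 31 of 38, beside 23.9% of all tested genes. Setting the library labelled Spns1 KO 4 apart was chosen after seeing its values in these same genes. That choice raises the count for the subunit genes, so the 2 shares are not a like comparison and are description only. Without the library labelled Spns1 KO 4, 20 subunit genes rose and 1, Psmb11, fell, and the median log2 fold change was 0.57. Calls over all tested genes rose as well in that fit, to 3003 up and 2677 down of 16651. Leaving out the library labelled Spns1 KO 1, 2 or 3 left 4, 3 and 3 genes called up, and leaving out WT 3 left 5. Those fits called 1601 of 16700, 1654 of 16686, 1531 of 16676 and 1745 of 16410 tested genes up. Scaling by library totals alone, which put the median of all tested genes at -0.18, also left 5, with a median of 0.30 for the subunit genes. Of all 16468 tested genes, 1739 were called up with that scaling. Psmb5, Psmb8 and Psmb10 were called in each of the 13 fits that left out 1 library. The library labelled Spns1 KO 4 also had the highest Spns1 level of its group, at 59.0 CPM beside 39.0, 44.5 and 36.6 CPM in the other 3, while WT 1 to 5 were at 57.2, 61.4, 57.6, 39.2 and 62.9 CPM. Its Spns1 level therefore lay in the WT range, as did 28 of its subunit genes, and its label could not be checked from Spns1. Its summed proximal tubule markers, at 7737 CPM, lay within its labelled group and above every WT library. Every value given for the libraries labelled Spns1 KO includes this library unless it is said to be left out.

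**Figure D1:**
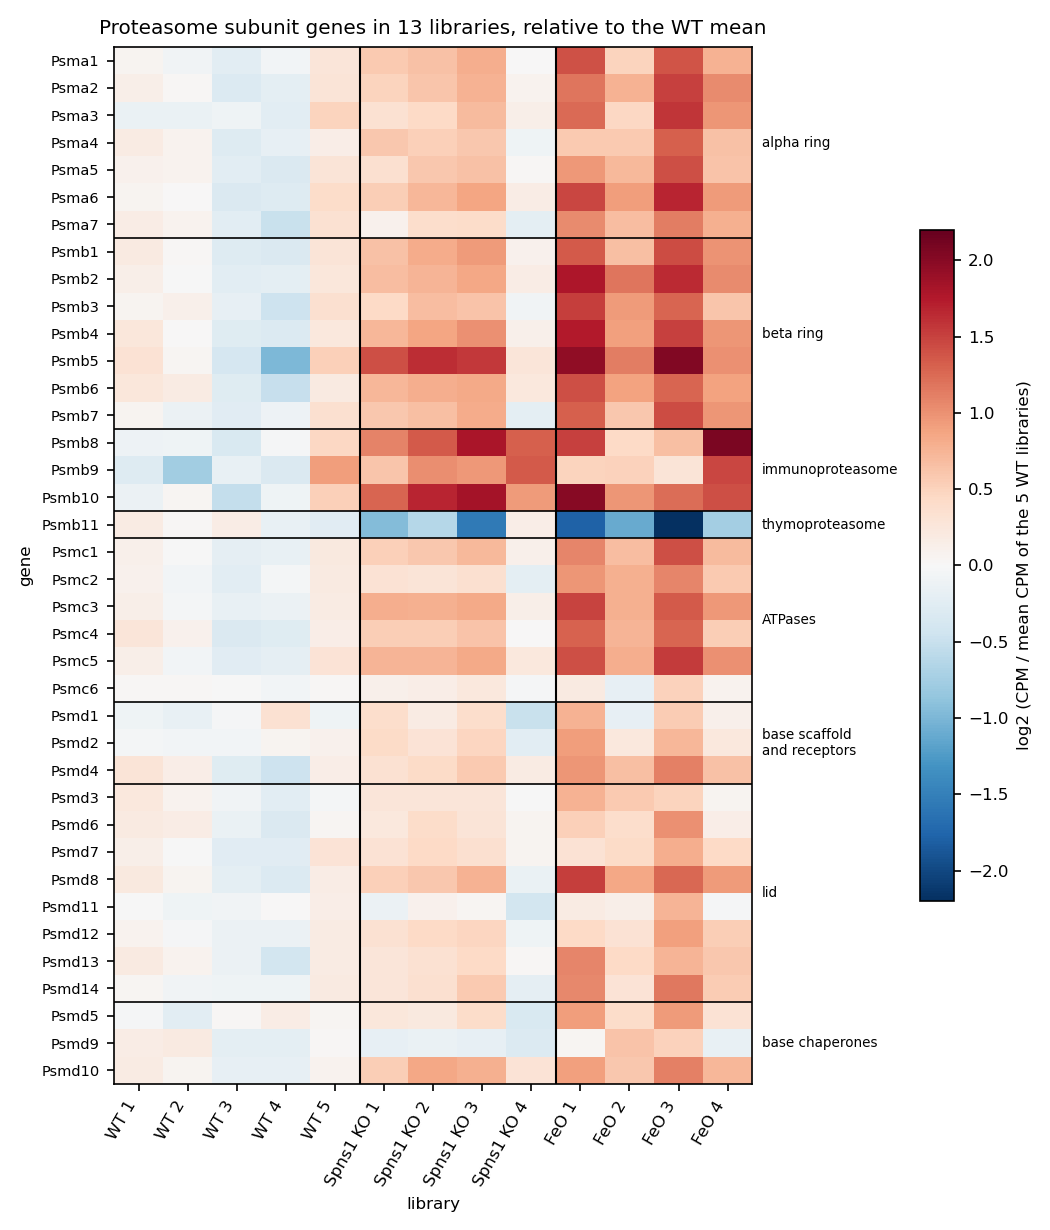
Log2 ratio of the CPM of each of 38 proteasome subunit genes (rows, grouped by role) to the mean of the 5 WT libraries, in each of 13 libraries (columns), with red above and blue below the WT mean. The FeO libraries and those labelled Spns1 KO 1 to 3 are red in most rows, the library labelled Spns1 KO 4 is pale in most rows but red in the immunoproteasome rows, and Psmb11 is blue in FeO and in the libraries labelled Spns1 KO 1 to 3.

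Both models were set against the same 5 WT libraries, so their values are given side by side. Called in both were 11 of the 12 genes that rose in the libraries labelled Spns1 KO, and 20 genes called up in FeO were not called in the libraries labelled Spns1 KO. Of all 38, 31 were called up in FeO, or 81.6%, so a large overlap was likely whichever 12 rose. The overlap was not counted over all tested genes. Of the 38 log2 fold changes, 34 were higher in FeO. The median difference over all tested genes, for the libraries labelled Spns1 KO against FeO, was 0.028. The plot of log2 fold changes by role shows the 2 models for each gene.

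**Figure D2:**
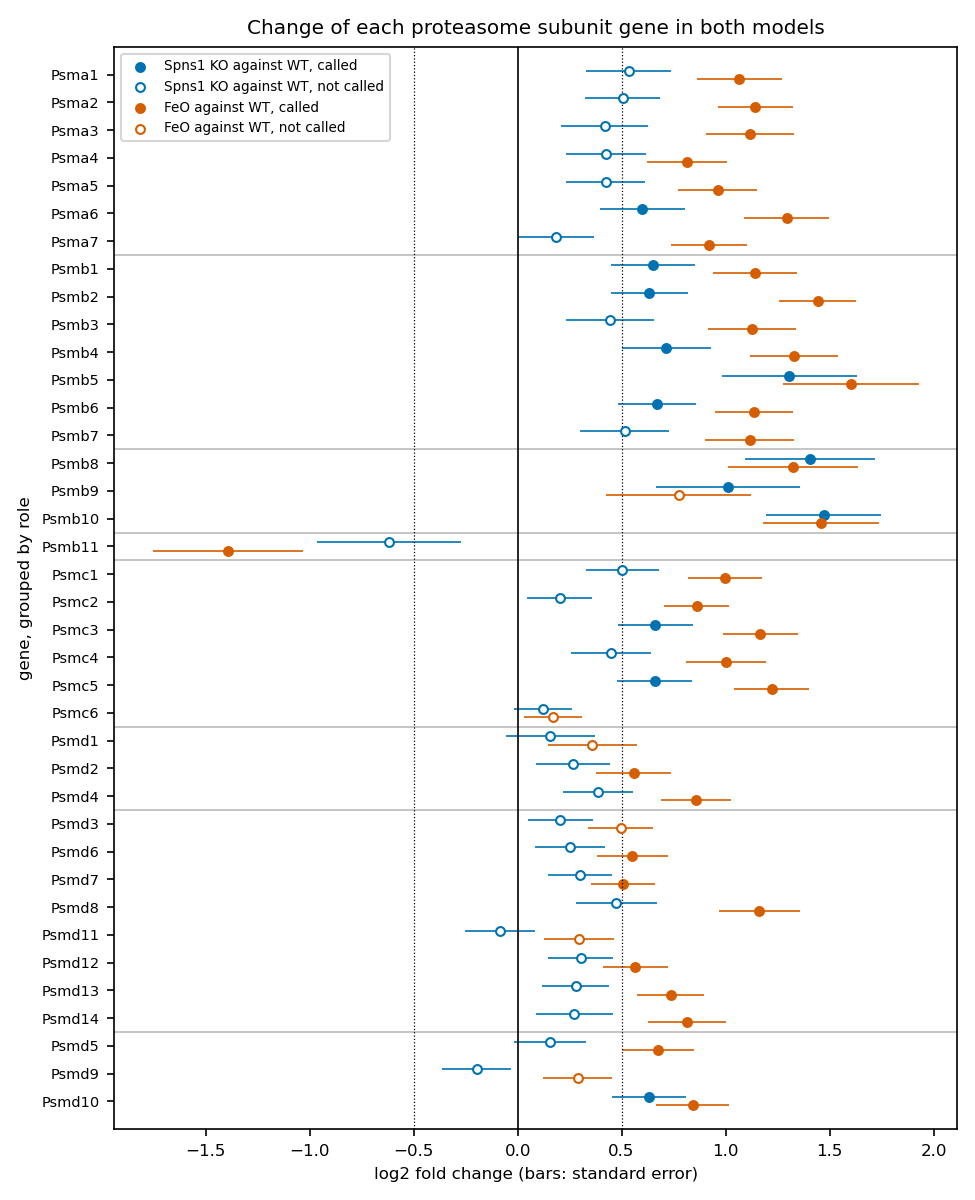
Log2 fold change of each of 38 proteasome subunit genes against WT (x axis, bars give the standard error) in the libraries labelled Spns1 KO (blue) and in FeO (orange), with filled points called and open points not called, and dotted lines at 0.5 and -0.5. FeO points lie to the right of the others in most genes, the 3 immunoproteasome genes lie close together or in the other order, and Psmb11 lies on the left.

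The alpha ring forms the outer gate of the core particle. All 7 tested alpha genes rose in FeO, with log2 fold changes from 0.82 (Psma4) to 1.29 (Psma6), and 1 of 7, Psma6, rose in the libraries labelled Spns1 KO, where the 7 ranged from 0.18 (Psma7) to 0.60. Without the library labelled Spns1 KO 4, 5 of 7 were called. Per length, WT levels of the 14 constitutive core genes ran from 14.7 CPM per kilobase in Psma2 to 75.3 in Psma4. These values depend on the transcript taken, of 2911 bases for Psma2 and 914 for Psma7. Psma2 and Psma7 had WT means of 42.8 and 43.3 CPM, yet Psma7 was at 47.4 CPM per kilobase.

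Psma6, a structural subunit of this ring, was at 40.8, 39.5, 31.3, 32.3 and 52.0 CPM in WT, at 57.0, 64.9, 71.8 and 43.8 CPM in the libraries labelled Spns1 KO and at 108.6, 74.3, 125.9 and 75.4 CPM in FeO. Every FeO library was above every WT library, whereas the library labelled Spns1 KO 4 lay inside the WT range. The log2 fold change was 1.29 ± 0.20 (SE) in FeO with an edgeR adjusted p of 0.000501, and 0.60 ± 0.20 with an edgeR adjusted p of 0.0437 in the libraries labelled Spns1 KO, a call that was lost in 7 of 13 fits without 1 library.

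Psma7, another subunit of the gate, had the smallest alpha change in the genetic model. It was at 48.7, 45.6, 37.0, 30.8 and 54.5 CPM in WT, at 46.2, 56.5, 57.0 and 37.3 CPM in the libraries labelled Spns1 KO and at 89.3, 69.6, 94.7 and 74.1 CPM in FeO. The first 2 groups overlapped and the FeO libraries stood above both. The edgeR adjusted p was 0.483 for a log2 fold change of 0.18 ± 0.18 in the libraries labelled Spns1 KO and 0.00135 for 0.92 ± 0.18 in FeO.

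Psma4 had the smallest change of the ring in FeO, at 98.8, 92.2, 72.3, 77.5 and 97.6 CPM in WT, 131.9, 125.5, 131.7 and 81.9 CPM in the libraries labelled Spns1 KO and 130.4, 130.3, 218.8 and 137.6 CPM in FeO. FeO did not overlap WT, and FeO 3 stood far above the rest of its group. Its log2 fold change was 0.82 ± 0.19 (edgeR adjusted p = 0.00397) in FeO and 0.43 ± 0.19 (edgeR adjusted p = 0.124) in the libraries labelled Spns1 KO.

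Psma2 and Psma3, further ring members, rose in FeO by 1.14 and 1.12 on the log2 scale. Psma2 was at 47.0, 43.7, 34.6, 36.7 and 52.2 CPM in WT, at 60.1, 65.4, 72.4 and 45.3 CPM in the libraries labelled Spns1 KO and at 96.4, 72.7, 121.5 and 87.8 CPM in FeO. Psma3 was at 39.7, 40.0, 41.4, 37.7 and 61.5 CPM in WT, at 55.7, 59.8, 71.6 and 48.4 CPM in the libraries labelled Spns1 KO and at 104.7, 60.5, 131.2 and 86.3 CPM in FeO. WT 5 stood above the other WT libraries for Psma3, and FeO 2 fell just below it. Psma1 and Psma5 rose by 1.07 and 0.96 in FeO, beside 0.53 and 0.42, not called, in the libraries labelled Spns1 KO. Of the 31-base words of the Psma3 transcript, 27.9% also occur in other genes, among them Gm13835, whose mean count was 29.1% of that of Psma3, so reads of the 2 may have been divided between them.

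The constitutive beta ring holds the peptidases Psmb5 (chymotrypsin-like), Psmb6 (caspase-like) and Psmb7 (trypsin-like) and the structural subunits Psmb1 to Psmb4. All 7 genes rose in FeO, from 1.12 (Psmb7) to 1.60 (Psmb5) on the log2 scale, and 5 of 7 rose in the libraries labelled Spns1 KO, where the 7 ranged from 0.44 (Psmb3) to 1.31 (Psmb5). Without the library labelled Spns1 KO 4, 7 of 7 were called. Psmb1, Psmb2 and Psmb4 rose by 0.65, 0.63 and 0.72 in the libraries labelled Spns1 KO and by 1.14, 1.44 and 1.33 in FeO.

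Psmb5 was at 18.9, 15.6, 11.6, 7.59 and 21.8 CPM in WT, at 40.4, 46.6, 44.1 and 18.2 CPM in the libraries labelled Spns1 KO and at 58.3, 33.1, 61.8 and 30.2 CPM in FeO. WT 4 was the lowest of the 13 libraries, and the library labelled Spns1 KO 4 lay between WT 2 and WT 1. Group means were 2.47-fold higher in the libraries labelled Spns1 KO, with a log2 fold change of 1.31 ± 0.32 and an edgeR adjusted p of 0.0103, and 3.04-fold higher in FeO, with 1.60 ± 0.33 and an edgeR adjusted p of 0.00155. Of its 31-base words 74.0% also occur in other genes, among them Psmb5-ps, which was at 0 in every library, and Gm3375, which had between 0 and 197 reads.

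Psmb6 was at 36.2, 34.6, 25.3, 21.4 and 34.9 CPM in WT, at 50.8, 53.3, 54.1 and 35.8 CPM in the libraries labelled Spns1 KO and at 81.1, 56.4, 74.3 and 56.4 CPM in FeO. The lowest library labelled Spns1 KO fell just under the highest WT library, and all FeO libraries were above both groups. The log2 fold changes were 0.67 ± 0.19 (edgeR adjusted p = 0.0196) and 1.14 ± 0.19 (edgeR adjusted p = 0.000606).

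Psmb7 was at 34.0, 30.1, 27.7, 30.3 and 41.8 CPM in WT, at 49.4, 52.0, 57.9 and 28.2 CPM in the libraries labelled Spns1 KO and at 81.9, 49.7, 88.5 and 64.0 CPM in FeO. Here the library labelled Spns1 KO 4 was near the bottom of the WT range while the other 3 were above it. The rise in FeO was 1.12 ± 0.21 (edgeR adjusted p = 0.00110), and the value of 0.51 ± 0.21 in the libraries labelled Spns1 KO did not pass (edgeR adjusted p = 0.0902). Psmb7 overlaps Nek6, with which it shares sequence.

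Psmb2 had the largest FeO change among the structural beta subunits. It was at 26.0, 23.7, 20.1, 20.6 and 28.4 CPM in WT, at 37.8, 39.9, 43.0 and 26.7 CPM in the libraries labelled Spns1 KO and at 81.7, 53.5, 74.4 and 48.9 CPM in FeO. All FeO libraries were above the other 9. The log2 fold changes were 1.44 ± 0.19 in FeO (edgeR adjusted p = 0.000363) and 0.63 ± 0.19 in the libraries labelled Spns1 KO (edgeR adjusted p = 0.0234).

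**Figure D3:**
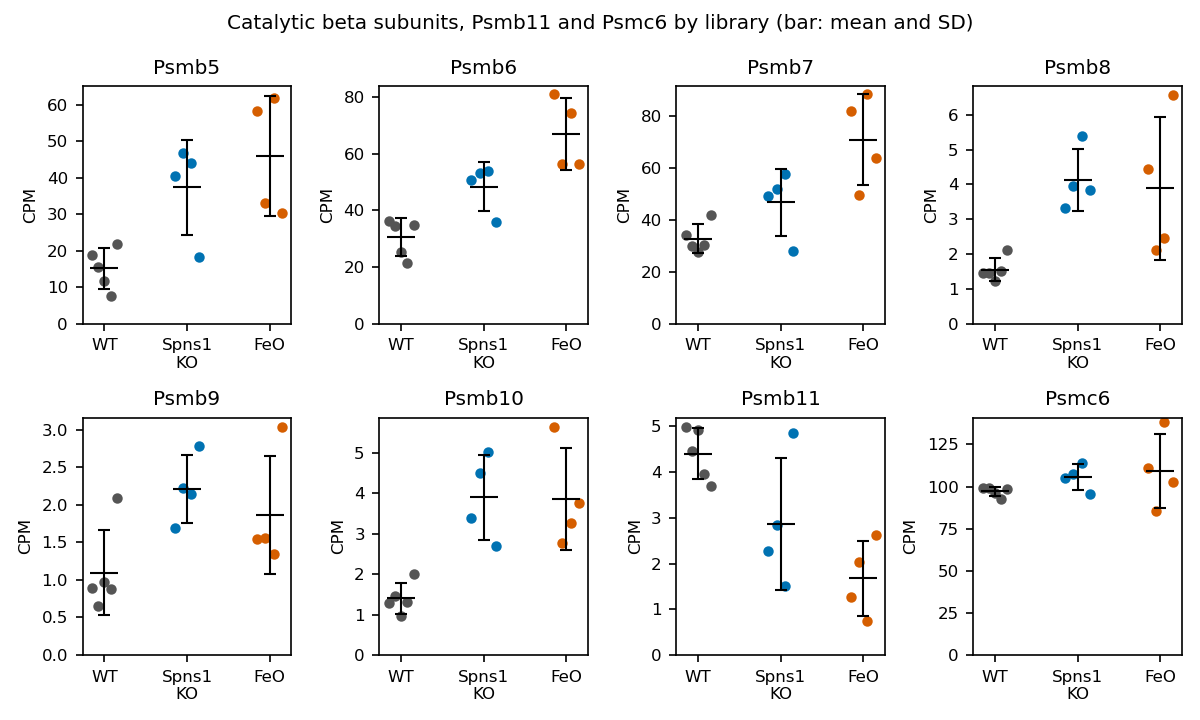
CPM (y axes, each from 0) of the constitutive peptidase genes Psmb5, Psmb6 and Psmb7, their inducible counterparts Psmb8, Psmb9 and Psmb10, the thymic gene Psmb11 and the ATPase gene Psmc6 in each library (points) by group, with the mean and SD as bars. One library labelled Spns1 KO sits low for Psmb5, Psmb6 and Psmb7 and within its group for Psmb8, the FeO libraries lie below WT for Psmb11, and the 3 groups overlap for Psmc6.

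The immunoproteasome peptidases Psmb8, Psmb9 and Psmb10 take the places of Psmb5, Psmb6 and Psmb7. All 3 rose in the libraries labelled Spns1 KO, by 1.41, 1.01 and 1.47 on the log2 scale, and 2 of 3, Psmb8 and Psmb10, rose in FeO, by 1.32 and 1.46. Their counts were low, with WT means of 1.55, 1.10 and 1.40 CPM. In these genes the library labelled Spns1 KO 4 did not sit with WT.

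Psmb8 was at 1.44, 1.45, 1.23, 1.52 and 2.12 CPM in WT, at 3.31, 3.95, 5.38 and 3.85 CPM in the libraries labelled Spns1 KO and at 4.43, 2.11, 2.45 and 6.56 CPM in FeO. All 4 libraries labelled Spns1 KO were above WT, and FeO 2 was just below the highest WT library. The edgeR adjusted p was 0.00564 (SE 0.31) in the first comparison and 0.00386 (SE 0.31) in the second.

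Psmb10 was at 1.28, 1.45, 0.976, 1.31 and 2.01 CPM in WT, at 3.40, 4.49, 5.01 and 2.69 CPM in the libraries labelled Spns1 KO and at 5.64, 2.76, 3.27 and 3.75 CPM in FeO. No library of either model overlapped WT. Means were 2.78-fold and 2.75-fold higher, with edgeR adjusted p of 0.00213 (SE 0.28) and 0.00109 (SE 0.28).

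Psmb9 was at 0.898, 0.647, 0.976, 0.883 and 2.08 CPM in WT, at 1.68, 2.22, 2.14 and 2.78 CPM in the libraries labelled Spns1 KO and at 1.54, 1.56, 1.34 and 3.04 CPM in FeO. WT 5 and FeO 4 each stood far above the rest of their group. The edgeR adjusted p was 0.0448 (SE 0.34) in the libraries labelled Spns1 KO, a call lost in 8 of 13 fits without 1 library, and 0.0814 in FeO for a log2 fold change of 0.77 ± 0.35. Psmb9 overlaps Tap1 on the genome, and Psmb8 overlaps Gm20496.

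The level of each inducible gene was also expressed per transcript length as a percent of its constitutive counterpart. Psmb10 was 7.46% ± 0.988 (SD, n = 4) of Psmb7 in the libraries labelled Spns1 KO and 3.75% ± 0.520 (SD, n = 5) in WT, with no overlap. A two-sided exact permutation test gave p = 0.0159, the smallest it can give for groups of 4 and 5 libraries. It was 0.0952 after Benjamini-Hochberg adjustment over the 6 ratios tested. A lone ratio at that smallest p cannot pass after this adjustment, however large its difference, so the test could not decide. In FeO the ratio was 4.86% ± 1.18 (SD, n = 4). The other 5 exact p-values lay between 0.143 and 0.762.

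Summed immune cell markers were also higher than in WT in both models. The summed level of 14 immune markers was 278 to 370 CPM in the libraries labelled Spns1 KO, 178 to 417 CPM in FeO and 116 to 165 CPM in WT. Of the 14, 6 rose in the libraries labelled Spns1 KO and 10 in FeO, beside 14.0% and 22.4% of all tested genes. Cd3e and Cd79a, which define T and B cells, had WT means of 0.446 and 0.289 CPM, and Ptprc, which marks all leukocytes, was called in neither model. FeO 4, the highest FeO library for Psmb8 and Psmb9, also had the highest immune sum, and WT 5 the highest among WT. Fibroblast markers summed to 119 to 166 CPM in the libraries labelled Spns1 KO, 61.3 to 99.2 CPM in WT and 53.8 to 129.7 CPM in FeO. The part of these cells in the immunoproteasome result was not tested.

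Psmb11, the peptidase of the thymoproteasome known from cortical epithelium of the thymus, was the one subunit gene called down. It was at 4.98, 4.47, 4.91, 3.96 and 3.71 CPM in WT, at 2.27, 2.84, 1.50 and 4.86 CPM in the libraries labelled Spns1 KO and at 1.28, 2.04, 0.749 and 2.62 CPM in FeO. Every FeO library was below every WT library, as were 3 of the 4 libraries labelled Spns1 KO. In FeO it fell by 1.39 ± 0.36 on the log2 scale (edgeR adjusted p = 0.00661), and in the libraries labelled Spns1 KO the value of -0.62 ± 0.35 did not pass (edgeR adjusted p = 0.207). In mouse build GRCm38 Psmb11 (chromosome 14, 54621433 to 54629556, plus strand) lies beside Psmb5 (54614119 to 54618022, minus strand), which rose. Cells of the thymus are no part of the labelled tissue, and the origin of these reads was not tested.

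The 6 ATPases Psmc1 to Psmc6 form the ring that pulls substrates into the core. In FeO 5 of 6 rose, from 0.86 (Psmc2) to 1.22 (Psmc5) on the log2 scale, and in the libraries labelled Spns1 KO 2 of 6, Psmc3 and Psmc5, rose, both by 0.66. Without the library labelled Spns1 KO 4, 4 of 6 were called. Psmc1 and Psmc4 rose by 1.00 in FeO, beside 0.50 and 0.45, not called, in the libraries labelled Spns1 KO.

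Psmc3 was at 54.4, 48.5, 44.3, 45.4 and 56.5 CPM in WT, at 86.5, 85.9, 88.5 and 54.3 CPM in the libraries labelled Spns1 KO and at 139.7, 85.3, 126.5 and 96.2 CPM in FeO. The libraries labelled Spns1 KO 1 to 3 lay within 3 CPM of one another, with the other one near the top of the WT range. The edgeR adjusted p was 0.0166 (SE 0.18) in the libraries labelled Spns1 KO and 0.000478 in FeO for a rise of 1.17 ± 0.18.

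Psmc5 repeated this order at 43.8, 38.5, 33.7, 34.7 and 49.1 CPM in WT, 67.3, 67.1, 71.0 and 46.9 CPM in the libraries labelled Spns1 KO and 106.4, 69.9, 116.1 and 80.4 CPM in FeO. FeO did not overlap WT. The edgeR adjusted p was 0.0174 (SE 0.18) and 0.000442 (SE 0.18).

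Psmc6 stood apart from the other ATPases. It was at 99.0, 98.8, 95.9, 92.8 and 98.8 CPM in WT, at 105.1, 107.7, 114.2 and 95.5 CPM in the libraries labelled Spns1 KO and at 110.8, 85.4, 138.3 and 102.4 CPM in FeO. Its WT libraries were close together, and FeO lay on both sides of them. The log2 fold changes of 0.12 ± 0.14 and 0.17 ± 0.14 had edgeR adjusted p of 0.553 and 0.334, and the first became -0.0098 when library totals alone set the scale. Per length it had the highest WT level of the 6, at 43.5 CPM per kilobase beside 25.6 for Psmc4, the lowest.

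The base scaffold Psmd1, its partner Psmd2 and the ubiquitin receptor Psmd4 belong to the base beside the ATPases. In FeO 2 of 3 rose, Psmd2 by 0.56 and Psmd4 by 0.86 on the log2 scale, while Psmd1 had a value of 0.36 with an edgeR adjusted p of 0.179. None of the 3 was called in the libraries labelled Spns1 KO, with values of 0.16 (Psmd1), 0.27 (Psmd2) and 0.39 (Psmd4).

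In the lid 6 of 8 genes rose in FeO and 0 of 8 in the libraries labelled Spns1 KO, with medians of 0.56 and 0.28. Psmd14, the deubiquitinase that removes ubiquitin chains, rose by 0.81 in FeO (edgeR adjusted p = 0.00318), beside 0.27 (edgeR adjusted p = 0.300) in the libraries labelled Spns1 KO. Its scaffold partner Psmd7 rose by 0.51 in FeO, just past the limit of 0.5, and Psmd3, at 0.4958 with an edgeR adjusted p of 0.0185, stopped just short of it. Psmd6, Psmd12 and Psmd13 rose by 0.55, 0.57 and 0.74 in FeO.

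Psmd8, a lid subunit that completes lid assembly, had the largest lid change. It was at 49.7, 45.0, 37.1, 35.0 and 48.2 CPM in WT, at 61.9, 65.3, 73.1 and 38.9 CPM in the libraries labelled Spns1 KO and at 123.3, 77.2, 102.8 and 81.9 CPM in FeO. All FeO libraries were above the other 9. The edgeR adjusted p was 0.000618 for 1.16 ± 0.19 in FeO and 0.0865 for 0.47 ± 0.19 in the libraries labelled Spns1 KO.

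Psmd11, a lid subunit that contacts the core, was at 134.0, 126.3, 127.2, 135.4 and 149.7 CPM in WT, at 122.7, 144.3, 138.5 and 101.8 CPM in the libraries labelled Spns1 KO and at 152.7, 147.4, 226.6 and 132.9 CPM in FeO. The 3 groups overlapped, with FeO 3 far above the others. The log2 fold changes were -0.08 ± 0.17 and 0.29 ± 0.17, with edgeR adjusted p of 0.738 and 0.162. It had the highest WT level per length of the 11 non-ATPase regulatory genes, at 47.2 CPM per kilobase beside 17.3 for Psmd13.

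The base assembly chaperones Psmd5, Psmd9 and Psmd10 hold ATPase pairs before the base is complete and are absent from the finished particle. In FeO, Psmd5 rose by 0.67 and Psmd10 by 0.84 on the log2 scale, and in the libraries labelled Spns1 KO Psmd10 alone was called, beside 0.16 for Psmd5. Psmd10 was at 5.45, 4.99, 4.22, 4.24 and 5.02 CPM in WT, at 6.96, 8.63, 8.18 and 5.90 CPM in the libraries labelled Spns1 KO and at 8.92, 7.20, 10.3 and 7.95 CPM in FeO. No library of either model overlapped WT, with edgeR adjusted p of 0.0189 for 0.63 ± 0.18 and 0.00188 for 0.84 ± 0.18. With library totals alone, the libraries labelled Spns1 KO overlapped WT. Their call was lost in 3 of 13 fits without 1 library, and with the length and GC trend removed.

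Psmd9 was at 34.1, 34.7, 26.1, 26.3 and 30.8 CPM in WT, at 26.9, 27.6, 26.9 and 24.7 CPM in the libraries labelled Spns1 KO and at 31.3, 46.9, 43.1 and 27.2 CPM in FeO. The libraries labelled Spns1 KO lay in the lower part of the WT range or just under it. The log2 values of -0.20 ± 0.17 and 0.29 ± 0.17 had edgeR adjusted p of 0.405 and 0.166. Psmd9 overlaps Hpd on the opposite strand.

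The difference between the models was tested in the same fit. Of 38 subunit genes, 7 were lower in the libraries labelled Spns1 KO than in FeO, which is 18.4% beside 8.10% of all tested genes, and 0 were higher, beside 6.76%. The unadjusted p was under 0.05 in 24, DESeq2 called 11 lower and edgeR on only the 2 groups called 2. Over all tested genes those fits called 1767 of 17033 and 599 of 15787 lower. The median log2 difference was -0.49, beside 0.028 for all tested genes. The 7 were the alpha genes Psma2 (-0.64 ± 0.19), Psma3 (-0.70 ± 0.22), Psma6 (-0.69 ± 0.22) and Psma7 (-0.74 ± 0.19), the beta gene Psmb2 (-0.81 ± 0.20), the ATPase gene Psmc2 (-0.66 ± 0.16) and the lid gene Psmd8 (-0.69 ± 0.21), with edgeR adjusted p from 0.0146 (Psmb2) to 0.0460 (Psma3).

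Psmc2, not shown above by library, was at 63.7, 57.9, 51.2, 58.6 and 68.7 CPM in WT, at 74.9, 73.0, 76.7 and 51.5 CPM in the libraries labelled Spns1 KO and at 117.2, 102.6, 126.9 and 89.3 CPM in FeO. FeO was above both other groups, which overlapped. Of the 7 calls, Psmc2 held in all 13 fits without 1 library, Psmb2 was lost in 1, Psma7 in 4, Psma2 and Psmd8 in 6, Psma6 in 7 and Psma3 in 8. The number called lower was 1 without FeO 1, 2 without FeO 3 and 2 without the library labelled Spns1 KO 1 or 4, 3 without the library labelled Spns1 KO 2 or WT 2, 17 without FeO 2 and 15 without FeO 4. Of all tested genes, 636 of 16681 were lower without FeO 1 and 1630 of 16690 without FeO 2. For the immunoproteasome genes Psmb8, Psmb9 and Psmb10 the differences between the models were 0.08 ± 0.32, 0.24 ± 0.36 and 0.01 ± 0.29, with edgeR adjusted p of 0.883, 0.676 and 0.981.

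Transcript length moved with these changes. The 38 tested subunit genes had a median transcript of 1540.5 bases, beside 2931 for all tested genes with a length. Among the 3183 tested genes with transcripts under 1600 bases, 33.4% rose in the libraries labelled Spns1 KO and 47.1% in FeO, and among the 22 subunit genes under that length it was 9, or 40.9%, and 21, or 95.5%. Their median log2 fold changes were 0.51 and 1.03, beside 0.40 and 0.63 for the 3183. When each library was freed of its trend on length and GC content, 4 of 38 subunit genes rose in the libraries labelled Spns1 KO. In FeO 25 rose and 1 fell, and the medians were 0.20 and 0.62. Of all 16468 tested genes, 1791 rose in the libraries labelled Spns1 KO, a share close to that of the subunit genes. In FeO 3448 rose and 2179 fell, and the medians of all tested genes were -0.011 and 0.077.

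The 4 were Psma2, at 0.66, with Psmb1, Psmb8 and Psmb10, and the call of Psmb5 was lost at 0.78. The 6 calls lost in FeO were those of Psma4 (0.41), Psma7 (0.43), Psmd4 (0.46), Psmd6 (0.20), Psmd7 (0.20) and Psmd12 (0.38). By role, 5 of 7 alpha genes, 7 of 7 beta genes, 2 of 3 immunoproteasome genes, 5 of 6 ATPases, 1 of 3 scaffold and receptor genes, 3 of 8 lid genes and 2 of 3 chaperones rose in FeO with the trend removed. Between the models 10 were then lower in the libraries labelled Spns1 KO, beside 1609 of 16468 tested genes.

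**Figure D4:**
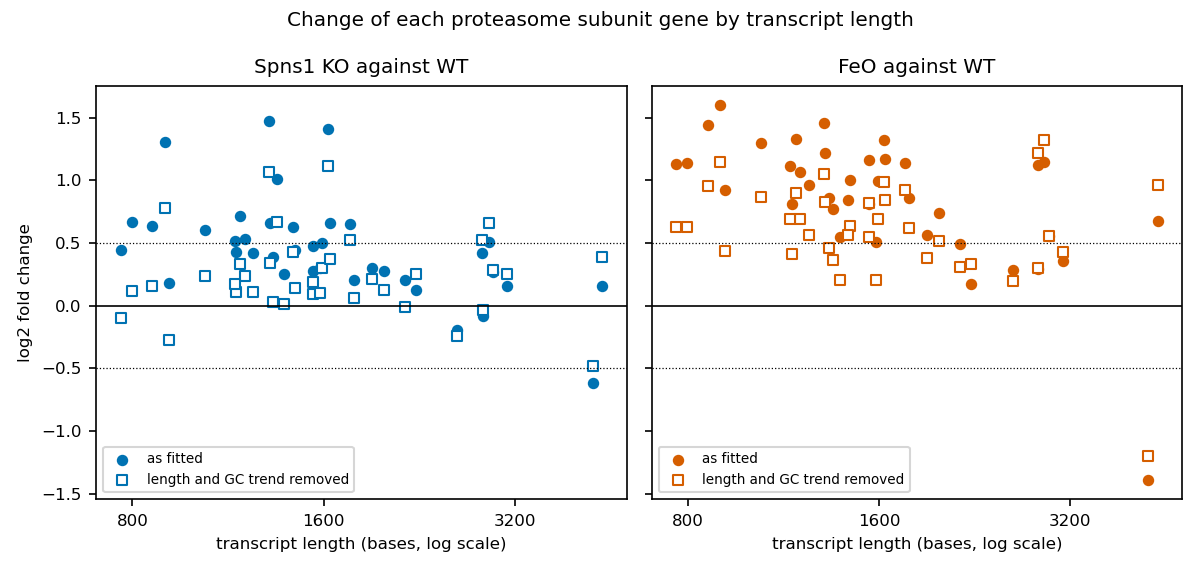
Log2 fold change against WT (y axis) of 38 proteasome subunit genes by transcript length (x axis, log scale) in the libraries labelled Spns1 KO (left) and FeO (right), as fitted (filled circles) and with the trend on length and GC content removed (open squares). The median of the 38 drops from 0.43 to 0.20 on the left and from 0.94 to 0.62 on the right when the trend is removed.

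Some subunit genes share sequence with other genes. In 9 of them over 25% of the 31-base words occur in other genes. Among the other 29, 11 rose in the libraries labelled Spns1 KO and 23 in FeO, beside 14.0% and 22.4% of all tested genes. Their median log2 fold changes were 0.45 and 0.86, beside -0.045 and -0.011 for all tested genes. Shared words were not counted for genes outside the set, so the effect of shared sequence was not tested.

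Most subunit genes had similar profiles across the 13 libraries. Of the 38, 25 had a Pearson r over 0.9 with the mean profile of the subunit genes on the log2 scale, beside 5.16% of the other tested genes. Each subunit gene is part of that mean profile and the other genes are not, so these values are not a like comparison. They are a description over libraries that share group and depth. The lowest were Psmb11 (-0.92), Psmd9 (0.40), Psmb9 (0.43), Psmd1 (0.63), Psmb8 and Psmd11 (both 0.65) and Psmc6 (0.69). The tested genes outside the set with the most similar profile over 13 libraries were Polr1d (0.992), a subunit of RNA polymerases, and Rwdd1, Mrpl10, Itpa and Mrpl20 (0.99 each), of which Mrpl10 and Mrpl20 encode proteins of the mitochondrial ribosome.

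Partner genes were read from 7 lists, and no list was tested as a set. The shares of all tested genes to set beside each count were 14.0% up and 7.55% down in the libraries labelled Spns1 KO. In FeO they were 22.4% up and 19.7% down. Of the 6 assembly factors of the core, 3 rose in the libraries labelled Spns1 KO and 4 in FeO, with 0 falling. Pomp, the maturation factor of the beta ring, rose by 1.15 and 1.16 on the log2 scale, from a WT mean of 16.8 CPM to 37.3 and 37.6 CPM. Psmg2 rose by 0.82 and 1.19, Psmg4 by 1.50 and 1.44, and Psmg3 by 0.83 in FeO, beside 0.32, not called. Psmg1 had values of -0.25 and 0.05.

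Of 8 activator and inhibitor genes, 2 rose and 1 fell in the libraries labelled Spns1 KO, and 4 rose and 1 fell in FeO. Psme1 and Psme2, the interferon-inducible activator that caps the core, rose by 1.33 and 1.18 in the libraries labelled Spns1 KO and by 1.43 and 1.20 in FeO. Psme3 and Psme4, activators of the nuclear proteasome, had values of 0.17 and -0.03 in the first and 0.39 and -0.48 in the second, none called. Psmf1, an inhibitor of the core, rose by 0.56 in FeO and was at -0.05 in the libraries labelled Spns1 KO. Zfand5, which stimulates the proteasome, fell in both, with values of -0.68 and -0.77.

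Of 10 regulatory subunits and associated enzymes outside the subunit symbols, 3 rose in the libraries labelled Spns1 KO and 4 in FeO, and none fell in edgeR in either model. Sem1, the small lid subunit, rose by 1.53 and 1.42 and the deubiquitinase Uchl5 by 0.68 and 0.79. Rad23b rose by 0.70 in FeO. The receptor Adrm1, at 0.23 and 0.40, was not called.

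Of 11 genes of the NRF1 route, 0 rose and 1 fell in the libraries labelled Spns1 KO, beside 14.0% and 7.55% of all tested genes. In FeO 2 rose and 3 fell, beside 22.4% and 19.7%, so these counts do not set the list apart from other genes. Nfe2l1, which encodes NRF1 itself, had values of -0.11 (edgeR adjusted p = 0.756) and 0.45 (edgeR adjusted p = 0.117). In FeO, Nfe2l3, a relative of Nfe2l1, and Keap1, the adaptor that holds NRF2, rose by 0.78 and 0.56, and Ddi2, the protease that activates NRF1, and the small Maf partners Mafg and Mafk fell, with values of -0.88, -0.96 and -1.35. Maff fell by 1.32 in the libraries labelled Spns1 KO. Its edgeR adjusted p of 0.0474 and that of 0.0465 for Zfand5 were both close to the limit. RNA levels do not measure the cleavage or location of NRF1, which were not analysed here.

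Of 12 ubiquitin genes, 2 rose in the libraries labelled Spns1 KO, beside 14.0% of all tested genes. In FeO 5 rose and 1 fell, beside 22.4% and 19.7%. Rps27a, a fusion of ubiquitin with a ribosomal protein, rose by 1.49 and 1.28. The stress-responsive polyubiquitin gene Ubb rose by 0.93 in FeO, as did the conjugating enzymes Ube2n (1.23), Ube2l3 (0.95) and Ube2d2a (0.74), and the activating enzyme Uba6 fell by 0.63.

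Of 12 genes of interferon signalling and MHC class I peptide supply, which use the peptides that proteasomes make, 6 rose in the libraries labelled Spns1 KO and 8 in FeO. B2m rose by 1.29 and 1.13, H2-D1 by 1.22 and 0.96, H2-K1 by 0.85 and 0.59 and the peptide transporter subunit Tap2 by 0.88 and 0.67. Calr and Pdia3, chaperones of peptide loading that also serve general protein folding, rose by 0.82 and 1.06 and by 1.80 and 1.41. Tapbp rose by 0.82 in FeO. Tap1, Nlrc5, Irf1 and Erap1 were called in neither. Summed immune markers, given above, were also higher in both models, and their part in these changes was not tested. Of 9 genes of ER-associated degradation, 0 were called in the libraries labelled Spns1 KO. In FeO 2 rose, among them Derl1 (0.70), beside 22.4% of all tested genes.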

How the data were processed

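Paired-end TruSeq libraries were sequenced on a NovaSeq. The deposited table holds the authors' estimated counts per gene, which were whole numbers. The submitters' processing notes name bcl2fastq 2.19, kallisto 0.44.0, DESeq2 and GRCm38, whereas the paper's methods describe a genome aligner and HTSeq, so multi-gene reads may have been divided by either route. Groups were taken from the labels. Counts were fitted with edgeR 4.0.16 (R 4.3.3; TMM factors, filterByExpr, quasi-likelihood test) over all 13 libraries in 1 model with 3 groups. A gene was called at a Benjamini-Hochberg adjusted p under 0.05 and a log2 fold change beyond 0.5. CPM used TMM-scaled totals and lengths the longest principal transcript of GENCODE (GRCm38). Alternatives were DESeq2 1.42.0, limma-voom 3.58.1, other scalings, no filter, 2 groups only, a replicate block, a length and GC trend (mgcv 1.9.3) and leaving out each library. The script was tested on simulated data.

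Values by library are given for the peptidase genes, for the genes of largest and smallest log2 fold change in each model among those sharing a symbol stem (Psma, Psmb, Psmc or Psmd), for those called between the models and for those called down. Psmd11 was added after its values were seen. The subunit genes, lists and limits were chosen with earlier results of these data known. Same-numbered libraries of different groups had correlations of -0.351 to 0.218 over 12 pairs, 3 above 0.1, so numbers were not taken to pair samples. Exact permutation tests used scipy 1.17.1. Depth is the range of totals given above. Protein sequences were not used here. Single values of 4 genes counted in the partner lists are not reported here.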

Additional observations from a re-analysis of the deposited data

Results flagged for a closer look

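In 10 of 114 groups of libraries, 1 library lay far from the rest by Dixon's criterion, which chance alone meets in about 1 in 20 groups. In 5 of these the library was Spns1 KO 4, the lowest of its group, at 81.9 CPM for Psma4, 51.5 CPM for Psmc2, 54.3 CPM for Psmc3, 46.9 CPM for Psmc5 and 94.6 CPM for Psmd3. WT 5 was the highest of WT at 61.5 CPM for Psma3 and 2.08 CPM for Psmb9, and WT 4 at 125.2 CPM for Psmd1. FeO 3 was the highest of FeO at 218.8 CPM for Psma4, and FeO 4 at 3.04 CPM for Psmb9. The groups are genes measured in the same libraries, most with similar profiles, so the flags are not independent. The rate of 1 in 20 is thus no yardstick for their number.

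The 7 subunit genes whose level differed between the models by the test of the difference had log2 values, for the libraries labelled Spns1 KO minus FeO, of -0.64 (Psma2), -0.70 (Psma3), -0.69 (Psma6), -0.74 (Psma7), -0.81 (Psmb2), -0.66 (Psmc2) and -0.69 (Psmd8).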

How the results depend on the processing

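The number of subunit genes called up in the libraries labelled Spns1 KO, 12, was 5 with library totals only, 4 with the length and GC trend removed and 5 with that trend removed and the replicate block, and ranged from 3 to 20 when 1 library was left out, with 0 to 1 called down. Of 16468 tested genes, 1739, 1791 and 1091 were called up with those scalings, in that order. With library totals only, the median of all tested genes in that comparison was -0.18. The count of subunit genes with all libraries labelled Spns1 KO above WT was 31 without replicate 4, an alternative chosen after seeing the data. In FeO the count called up ranged from 27 to 33 without 1 library, and the median fell to 0.62 with the trend removed and to 0.61 with the block added. The number lower in the libraries labelled Spns1 KO than in FeO was 11 in DESeq2 and 2 with only the 2 groups compared, and ranged from 1 to 17 without 1 library.

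In the libraries labelled Spns1 KO, values that changed sign were those of Psma7 (-0.27 with the trend removed, -0.22 with the block as well), Psmb3 (-0.095 and -0.063) and Psmd3 (-0.013 and -0.060), Psmc6 (-0.0098 with library totals only) and Psmd11 (-0.15 to 0.0080 without 1 library), and none of these passed a threshold. With the replicate block alone, 13 subunit genes rose in the libraries labelled Spns1 KO and 32 in FeO, and 8 were lower between the models. Of all 16468 tested genes, that fit called 1931, 3325 and 1048 in the same comparisons and directions. Partner genes were tried under the same alternatives after seeing the data. Those called up in the libraries labelled Spns1 KO, 16, were 10 with the trend removed and the block. Those called down, 2, were 0 with upper-quartile factors, 7 with library totals only, 1 without the filter, 1 with the block, 4 with the trend removed, 0 with the trend removed and the block, and 0 to 4 without 1 library. Those called down in FeO, 5, were 3 with the trend removed, 2 with the block as well, and 3 to 5 without 1 library. Of all 16468 tested genes, 1243 were called down in the libraries labelled Spns1 KO. With library totals only this was 2086, and with the trend removed it was 779. In FeO 3252 of all tested genes were called down, 2179 with the trend removed and 1921 with the block as well. The cause of these changes was not tested, and the low counts of Psmb8, Psmb9, Psmb10 and Psmb11 limit their precision.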
